A study of Caenorhabditis elegans with 2 samples.

Results

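The genes of the proteasome and of ubiquitin conjugation were examined in a chromatin immunoprecipitation and sequencing (ChIP-seq) map of TBX-2, a T-box transcription factor, in Caenorhabditis elegans embryos. Members were all protein-coding genes of the WBcel235 annotation whose symbol begins with pas-, pbs-, rpt-, rpn- or ubc-, leaving out ubc-9, and 53 of 19973 nuclear protein-coding genes met this rule. They fall into 14 genes of the core particle (pas- and pbs-), 19 of the regulatory particle (rpt- and rpn-) and 20 conjugating enzymes (ubc-). The embryos came from hermaphrodites of strain OP159, which carries unc-119(ed3) and the transgene wgIs159, a stable source of TBX-2 with GFP and FLAG at its C-terminus. Late embryos were taken 3.5 h after synchronization by egg bleaching, the age is given as unknown, and an antibody against GFP was used. There was 1 group with 2 biological replicates, each compared with a control library by the authors, and no second condition and no untagged strain was analysed here. Whole embryos were used, so a peak can come from any cell that carried the tagged protein, and the map does not separate tissues.

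The proteasome is the barrel-shaped protease that degrades proteins marked with ubiquitin. Its core particle is built of rings of alpha subunits (the pas genes), which gate the entry, and of beta subunits (the pbs genes), some of which hold the protease sites. The regulatory particle sits on the barrel and is made of ATPases (rpt genes), which unfold substrates, and non-ATPase subunits (rpn genes), which bind and remove ubiquitin or build the lid. Ubiquitin reaches a substrate through an activating enzyme (E1), a conjugating enzyme (E2, here the ubc genes) and a ligase (E3). Most proteasome subunits are needed in essentially all cells, while single conjugating enzymes can have narrower roles. In C. elegans the factor SKN-1 is known to raise proteasome gene expression when proteasome function is impaired.

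Peaks lay near a larger share of proteasome genes than of conjugating enzyme genes. A gene is called bound when the summit of an optimal peak lay within 1 kb of any of its annotated 5′ ends. The optimal set is the authors' list of 3053 peaks from the pooled replicates that passed their reproducibility threshold. By this rule 17 of the 53 genes were bound (32.1%, 95% exact binomial interval 19.9 to 46.3), against 11.5% of all nuclear protein-coding genes. In the core particle 6 of 14 were bound (42.9%, interval 17.7 to 71.1) and in the regulatory particle 8 of 19 (42.1%, interval 20.3 to 66.5). Of the conjugating enzymes 3 of 20 were bound (15.0%, interval 3.21 to 37.9), a share near the 11.5% of all genes. The intervals of the 3 classes overlap, cover counting error over genes only, and the difference between classes was not tested. Within the regulatory particle 1 of 6 rpt genes and 7 of 13 rpn genes were bound, while the alpha and beta subunits had 3 of 7 each.

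In each replicate alone both proteasome classes had a larger share than the conjugating enzymes, with smaller gaps in replicate 1. The optimal set was pooled from these same 2 replicates, so they are not an independent check of it. The 3053 strongest peaks of each replicate were used, as many as the optimal set holds. Replicate 1 had 4 core particle (28.6%), 5 regulatory particle (26.3%) and 4 conjugating enzyme genes (20%) bound, against 11.2% of all genes. Replicate 2 had 5 (35.7%), 7 (36.8%) and 3 (15.0%) of them bound, against 11.3% of all genes. The replicate shares averaged 32.1% ± 5.05 for the core particle, 31.6% ± 7.44 for the regulatory particle and 17.5% ± 3.54 for the conjugating enzymes (SD, n = 2). Over all 53 genes the average was 26.4% ± 2.67 (SD, n = 2), and 9 of the 53 genes were bound in both replicates, against 9.2% of all genes. Other counting rules changed the class counts. With only the stronger 1527 optimal peaks, 3 of 14 core particle, 2 of 19 regulatory particle and 2 of 20 conjugating enzyme genes were bound. The share of all genes was then 6.67%. By that rule the regulatory particle and the conjugating enzymes had the same count and nearly the same share. With only the 500 strongest peaks, 1 gene of each class was bound, against 2.38% of all genes. With a peak counted only for the gene of the closest 5′ end, the core particle had 3 genes bound, the regulatory particle 7 and the conjugating enzymes 3, against 8.62% of all genes.

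**Figure D1:**
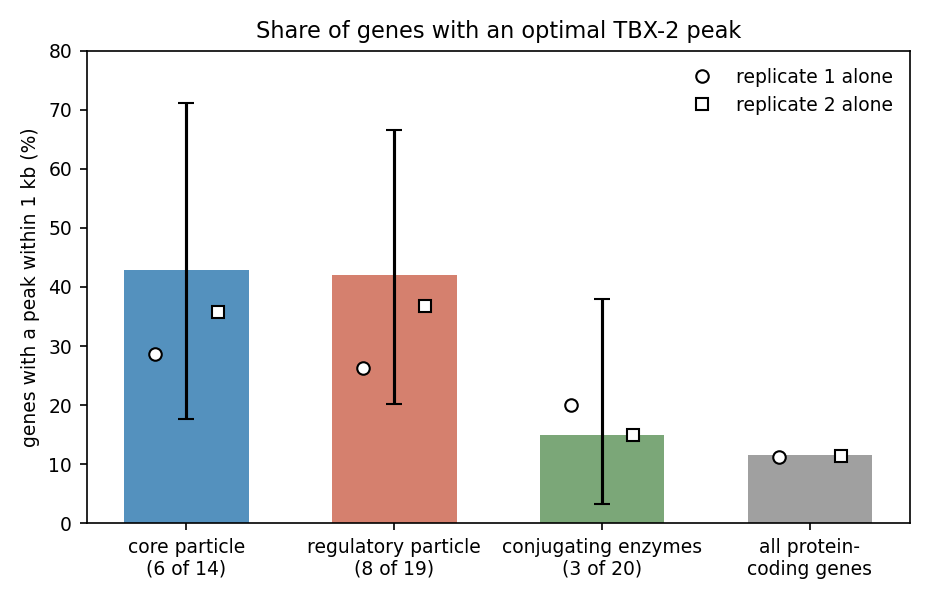
Bars give the percent of genes with an optimal summit within 1 kb of a 5′ end for the 3 classes and for all nuclear protein-coding genes; error bars are 95% exact binomial intervals, and open symbols give each replicate alone. The core particle (42.9%) and the regulatory particle (42.1%) stand above the conjugating enzymes (15.0%), and all genes are at 11.5%.

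The median signal was lower at bound proteasome genes than over all bound genes, and higher at the 3 bound conjugating enzymes, but single genes overlapped. Signal is the value the authors' peak caller gave to a peak, on a scale of its own in each list, and rank 1 is the strongest peak of a list. Over the 17 bound genes the strongest peak had a median signal of 113 and a median rank of 1836, against 138 and 1284 over all 2289 bound protein-coding genes. By class the median signal was 114 (6 core particle genes), 104 (8 regulatory particle genes) and 189 (3 conjugating enzymes). The signal at ubc-25 (113) was below the core particle median. Those at pbs-3 (249), rpn-3 (219) and rpn-7 (198) were above that at ubc-3 (189). Signals ran from 82.0 at rpn-13 to 249 at pbs-3 over 16 of these genes. Of the 53 members 3 (5.66%) had a peak among the 500 strongest, against 2.38% of all genes. For comparison, the peak at tbx-2 itself had a signal of 606 (rank 20). The 17 genes carried 18 optimal peaks, and no peak was shared between members.

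Among the alpha subunits of the core particle, pas-1, pas-3 and pas-4 were bound. The peak at pas-1 (chromosome V 14423253 to 14423688, ce11) was the 731st of the optimal list, with a signal of 185, and its replicate ranks were 975 (replicate 1) and 526 (replicate 2). Its summit lay at -853 bp from pas-1 (negative distances are upstream) but at -167 bp from rpoa-12, a gene for a subunit of an RNA polymerase on the same strand. The peak at pas-3 (chromosome I 5105982 to 5106417) reached a signal of 129.8 (rank 1437), with ranks of 2249 in replicate 1 and 1081 in replicate 2. It was centred at -152 bp from pas-3 and at -4 bp from use-1 on the opposite strand, whose yeast namesake is a vesicle fusion protein. The peak at pas-4 (chromosome I 8728415 to 8728850) was weak, with a signal of 84.5, a rank of 2870 and replicate ranks of 2949 and 3270. It lay at -146 bp from pas-4 and at -131 bp from rpb-3, which encodes a subunit of RNA polymerase II. All 3 alpha subunit peaks were nearer to a neighbouring gene than to the pas gene.

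Among the beta subunits pbs-3 had the strongest peak, and pbs-1 and pbs-7 had weak ones. The pbs-3 peak (chromosome II 4955507 to 4955681) reached a signal of 249 (rank 345), and its replicate peaks had signals of 136 (rank 393) in replicate 1 and 107 (rank 367) in replicate 2. Its summit lay at -151 bp from pbs-3, within an annotated UTR of the neighbouring gene ulp-2, and no other protein-coding 5′ end lay within 1 kb. PBS-1 is the homologue of the beta subunit with caspase-like activity, and its peak (chromosome IV 1709720 to 1710155) was weak (signal 93.5, rank 2464), with replicate ranks of 3196 and 2239. The pbs-7 peak (chromosome I 8696207 to 8696642, signal 98.1) ranked 2272 and had replicate ranks of 3655 and 1880. Both of these weak peaks were among the 3053 strongest in replicate 2 only. The genes of the other protease subunits, pbs-2 (trypsin-like) and pbs-5 (chymotrypsin-like), had no optimal summit within 1 kb. At pbs-2 the best peak within 1 kb ranked 18164 in the pooled list, 13388 in replicate 1 and 8143 in replicate 2. No peak of any list lay within 1 kb of pbs-5. A strong one lay at -1151 bp (signal 380, rank 87, replicate ranks 118 and 73), inside an intron of K05C4.2 and at -273 bp from the 5′ end of that gene.

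In the base of the regulatory particle, which holds the ATPase ring and ubiquitin receptors, 2 genes were bound. RPT-2 is a subunit of the ATPase ring, and the peak at rpt-2 (chromosome V 6017598 to 6018033) was the 2236th of the optimal list (signal 99.2). Among the 18 peaks this one had the largest fold between replicate ranks: it ranked 1514 in replicate 1 (signal 73.5) and 10526 in replicate 2 (signal 18.1), outside the strongest 3053. RPN-13 is a ubiquitin receptor, and its gene had the weakest peak of all members (chromosome III 6342007 to 6342442, signal 82.0, rank 3027). That peak ranked 3627 in replicate 1 and 3432 in replicate 2, so it was outside the strongest 3053 of either. The genes for the large scaffold subunits rpn-1 and rpn-2, for the ubiquitin receptor rpn-10 and for the other 5 ATPases were not bound.

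In the lid, the part that removes ubiquitin from substrates, rpn-3 and rpn-7 had the strongest peaks. The rpn-3 peak (chromosome III 8447103 to 8447235) reached a signal of 219 (rank 492), and its replicate peaks had signals of 133 (rank 416) in replicate 1 and 86.1 (rank 648) in replicate 2. It lay at -192 bp from rpn-3 and at -252 bp from hsp-110, a chaperone gene on the opposite strand. The rpn-7 peak (chromosome IV 9316018 to 9316453) reached a signal of 198 (rank 622; replicate ranks 580 and 679). Its summit lay at -395 bp from rpn-7 but at -21 bp from F49C12.9. The peaks at rpn-9 (signal 122, rank 1628) and rpn-5 (signal 98.2, rank 2270) lay at -235 bp and -38 bp. The rpn-9 peak ranked 1855 in replicate 1 and 1794 in replicate 2, and the rpn-5 peak ranked 3098 in replicate 1 and 2076 in replicate 2. The rpn-5 promoter faces scc-1, which encodes a cohesin subunit, with the summit at -256 bp from it.

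RPN-11, the deubiquitinase of the lid, and RPN-8, its partner with a related domain, both had genes with peaks, but the replicates disagreed on each. The rpn-11 peak (chromosome II 4044347 to 4044782, signal 100.9, rank 2166) had its summit at -19 bp; its replicate ranks were 1867 (replicate 1) and 3751 (replicate 2). The rpn-8 peak (chromosome I 4175762 to 4176197, signal 107, rank 1986) ranked 4688 in replicate 1 and 1088 in replicate 2. It was the only member summit downstream of a 5′ end, at 661 bp, in an intron of rpn-8. There it lay 17 bp before the start of the small nucleolar RNA gene R12E2.17 (a distance of -17 bp). The lid genes rpn-6.1, whose product is known in worms to raise proteasome activity when overproduced, its paralogue rpn-6.2 and rpn-12 were not bound.

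Of the 20 conjugating enzymes, 3 were bound, among them ubc-3 and ubc-25, whose peaks were among the strongest 3053 in both replicates. The peak at ubc-3, the homologue of yeast CDC34 that works with cullin ligases, reached 189 in signal and rank 694 (chromosome I 1697886 to 1698321, -245 bp), with replicate ranks of 485 and 1158. The peak at ubc-25, a gene with a known role in worm neuromuscular function, reached 113 in signal and rank 1836 (chromosome I 10562482 to 10562917, -270 bp), with replicate ranks of 1641 and 2271.

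The 17 conjugating enzyme genes that were not bound included several with well-studied partners. For ubc-18, which in worms acts with lin-35 in the shaping of the pharynx, the best peak within 1 kb was at -228 bp and ranked 6025 in the pooled list, 4815 in replicate 1 and 12718 in replicate 2. For ubc-7, an enzyme of protein degradation at the endoplasmic reticulum, it ranked 4112 in the pooled list, and an optimal peak (signal 165, rank 926) lay past the 3′ side of the gene at 1165 bp, nearest to rpac-19. For ubc-12, the enzyme that conjugates the ubiquitin-like NEDD8, it ranked 3629 in the pooled list, 2718 in replicate 1 and 5222 in replicate 2, so that replicate 1 alone would have called it. The 4 members on the X chromosome (ubc-17, ubc-21, ubc-22 and ubc-23) were not bound, while 13.1% of all genes of that chromosome were. A count of 0 of 4 sets no useful limit. For ubc-13, ubc-23, ubc-24 and ubc-26 no peak of any of the 3 relaxed lists lay within 1 kb.

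**Figure D2:**
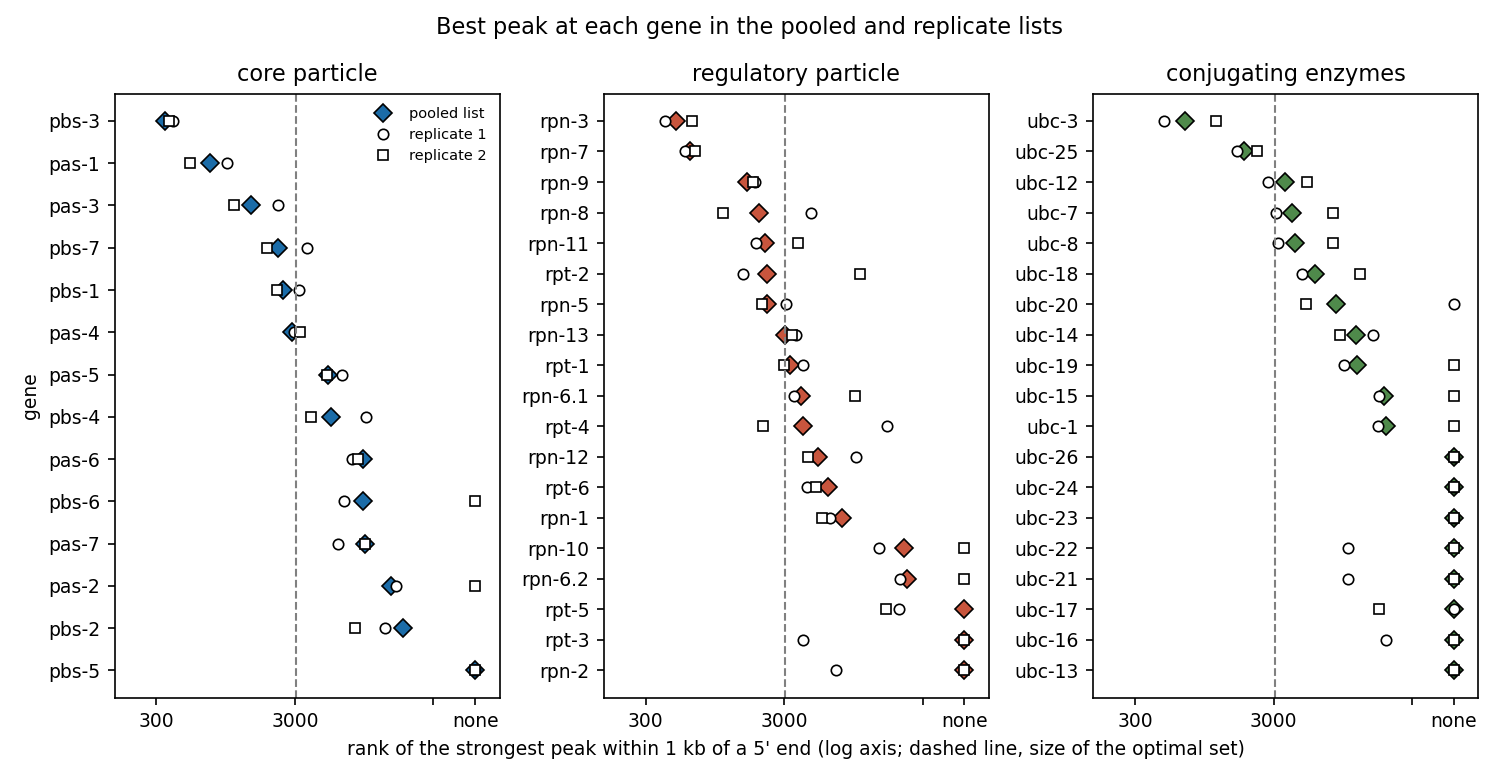
Each row is 1 of 52 genes, and symbols give the rank of the strongest peak within 1 kb of a 5′ end in the pooled relaxed list (filled diamonds), replicate 1 (circles) and replicate 2 (squares) on a log axis; none means that the list holds no such peak. The dashed line marks rank 3053. For 10 genes the replicates lie on opposite sides of that line, among them rpt-2 (1514 and 10526) and rpn-8 (4688 and 1088).

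Relaxed peaks, which include background, were common at proteasome genes and less so at conjugating enzyme genes. A summit of the pooled relaxed list lay within 1 kb of 13 of 14 core particle genes, 16 of 19 regulatory particle genes and 12 of 20 conjugating enzyme genes, against 44.5% of all genes. Several members fell just short of the optimal set. The nearest was rpt-1, an ATPase gene, with a pooled rank of 3278 (signal 78.0), a rank of 4068 in replicate 1 and of 2969 in replicate 2. It was followed by ubc-12 (signal 73.0), rpn-6.1 (rank 3996, signal 68.5), rpt-4 (rank 4082, signal 67.7) and ubc-7 (signal 67.4). At rpt-4, another ATPase gene, the best peak of replicate 2 ranked 2091 at -163 bp, while the best of replicate 1 ranked 16502 at -755 bp. In all, 3 genes outside the optimal set (rpt-1, rpt-4 and ubc-12) would have been called from 1 replicate alone. A further 6 members (11.3%) had an optimal summit between 1 and 2 kb from a 5′ end, against 4.47% of all genes. They are pas-5, pbs-2, pbs-5, rpt-6, ubc-7 and ubc-8, and the peak was nearest to the member itself only at pas-5 (-1137 bp) and ubc-8 (-1526 bp).

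Replicate summits lay close to the optimal summits, and some replicate ranks differed widely. Each optimal peak was paired with the replicate peak that overlapped it and had the nearest summit. The median shift between the optimal and the replicate summits was 5.5 bp, and the largest was 45 bp, over 18 peaks and both replicates. The replicate summits can lie further from each other. At ubc-3 they fell on opposite sides of the optimal summit, by 35 bp in replicate 1 and -39 bp in replicate 2. Spearman's rho between the signals of the replicates was 0.560 and Pearson's r on the log2 scale was 0.604 over the 18 peaks, as a description; these peaks were chosen from the pooled data of the same replicates. Of the 18 peaks, 10 were among the strongest 3053 of both replicates, and 13 had replicate ranks within a factor of 2 of each other.

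Most summits lay a short way upstream of the gene. Of the 17 strongest peaks 15 lay within 400 bp upstream of a 5′ end, with a median of -192 bp, against a median of -226 bp over all bound genes. The share within 500 bp upstream was 88.2%, against 68.5% over all bound genes. The exceptions were pas-1, with its peak in the promoter of rpoa-12, and rpn-8, with its peak in an intron. Since many worm transcripts have their first bases replaced by trans-splicing, an annotated 5′ end need not be where transcription starts.

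**Figure D3:**
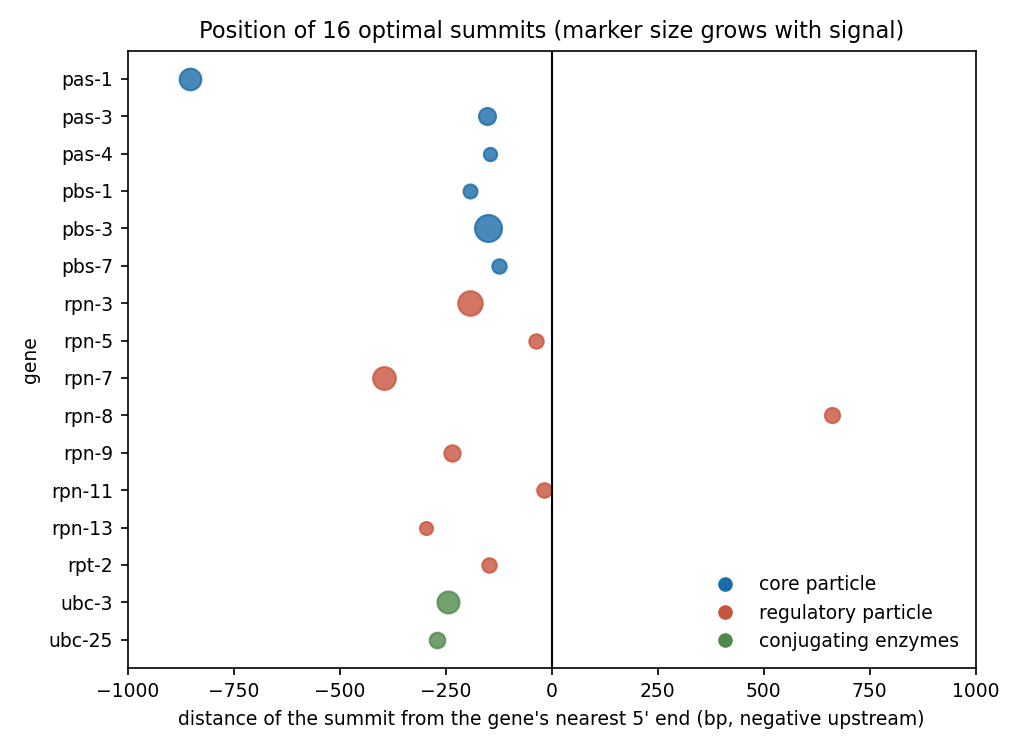
Each row is 1 of 16 optimal peaks of bound genes, placed by the distance in bp of its summit from the nearest 5′ end of its gene, with marker size growing with the signal and colour giving the class. Most summits lie within 400 bp upstream, with pas-1 (-853 bp) and rpn-8 (661 bp) apart.

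Many of the bound promoters were shared with a gene on the other strand. At 10 of the 17 genes (58.8%) the strongest peak lay upstream of both the member and a protein-coding gene on the opposite strand, against 39.6% of all bound genes. Among the neighbours were use-1, rpb-3, K08D12.3, F39H11.1, hsp-110, scc-1, F49C12.9, T06D8.9 and aps-1 (an adaptor subunit of vesicle coats). Counting neighbours on either strand, the neighbour was nearer to the summit at 4 of the 17 genes (pas-1, pas-3, pas-4 and rpn-7; 23.5%), against 25.5% of all bound genes. A ChIP peak does not show which gene of such a pair it belongs to. The 2 peaks at rpt-2 and pas-4 also lay inside annotated non-coding RNA genes, F29G9.10 and C36B1.16.

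Head-to-head neighbours were more frequent among the members than among all genes. Of the 53 members 30 (56.6%) had a protein-coding gene on the opposite strand with its 5′ end within 1 kb upstream, against 18.8% of all protein-coding genes. This head-to-head layout was found at 9 of 14 core particle genes, 13 of 19 regulatory particle genes and 8 of 20 conjugating enzyme genes. Across the genome, head-to-head genes were bound in 25.1% of cases and other genes in 8.31%, so the layout moved with the call. Among the members 36.7% of head-to-head genes (11 of 30) and 26.1% of the others (6 of 23) were bound. The part of the layout in the class counts was not tested. Its values by class are given here: 4 of 9 core particle, 6 of 13 regulatory particle and 1 of 8 conjugating enzyme genes with a partner were bound, and 2 of 5, 2 of 6 and 2 of 12 without.

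**Figure D4:**
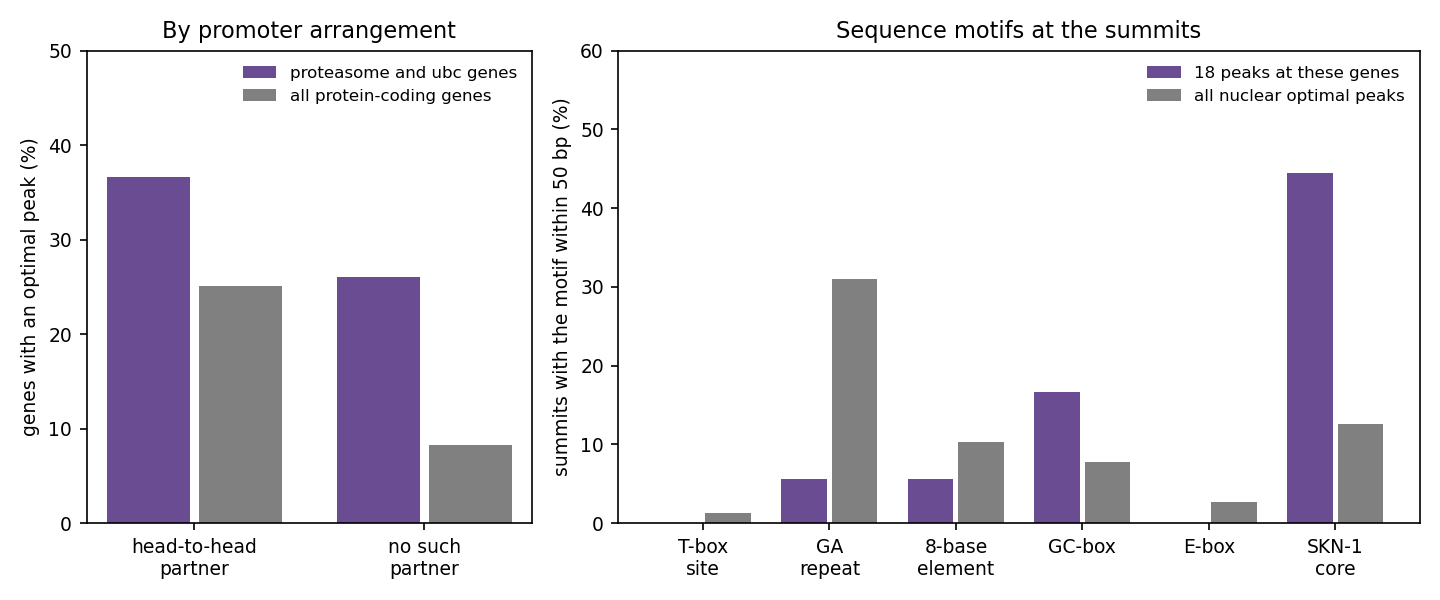
Left, percent of genes with an optimal peak by promoter arrangement, for the 53 members and for all protein-coding genes (36.7% and 25.1% with a head-to-head partner, 26.1% and 8.31% without). Right, percent of summits with each motif within 50 bp, for the 18 member peaks and for all 3034 nuclear optimal peaks; the SKN-1 core stands at 44.4% against 12.7% and the GA repeat at 5.56% against 31.0%.

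The exact T-box word GGTGTGA was at no member summit, and it was rare at all TBX-2 peaks too. Other forms of the T-box site were not searched for. A smaller share of member peaks than of all TBX-2 peaks held the GA repeat. Each motif was searched for within 50 bp of the summit on either strand. The T-box site GGTGTGA was in 0 of 18 member windows, against 1.32% of the 3034 nuclear optimal windows, and in 0 of 53 promoters of members, against 2.30% of all promoters (250 bp before to 50 bp after the 5′ end of the longest transcript). A count of 0 allows a share of up to 16.7% in 18 windows and 5.66% in 53 promoters (3 counts of the total, for counting error only). The GA repeat GAGAGA was in 1 window (at ubc-25), against 31.0% of all, and CTGCGTCT was in 1 (at rpn-9), against 10.3%. The GC-box GGGCGG was in 3 (among them those at pbs-3 and rpn-7), against 7.81%, and the E-box CACGTG in 0 (up to 16.7%), against 2.74%. The 5-base core GTCAT of the SKN-1 site was in 8 windows (44.4%), at pas-3, pbs-1, pbs-7, rpn-7, rpn-8, rpn-11, rpn-13 and rpt-2, against 12.7% of all. All 8 are proteasome genes, and it was in none of the 4 windows at conjugating enzymes, which are too few to set a useful limit. Within 25 bp of the summit it was found at 2 of 18 peaks, against 6.53% of all, and within 100 bp at 10 of 18, against 24.4%. In promoters it was present in 52.8% of the members, against 39.5% of all. By class it was in 9 of 14 core particle, 10 of 19 regulatory particle and 9 of 20 conjugating enzyme promoters. It was in 8 of 17 promoters of bound members, against 20 of 36 of members that were not bound. A word this short occurs often, and a match is a description, not evidence of a bound factor. The GC content of the member windows had a median of 47.0% (34.7 to 54.5), against 49.5% in all nuclear windows.

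The windows below show part of what was found at the summits: the GTCAT core at pbs-1 and rpn-13, the CTGCGTCT element at rpn-9, and the windows with none of the 6 motifs at rpn-3 and pas-1. Windows with the GC-box or the GA repeat are not shown. Each is the plus strand of WBcel235 (RefSeq), 5′ to 3′, with the summit at the centre and any motif in capitals (ATGAC is GTCAT on the minus strand).
pbs-1, chrIV:1709888-1709988: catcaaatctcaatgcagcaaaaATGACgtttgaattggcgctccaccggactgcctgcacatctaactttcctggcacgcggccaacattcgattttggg
rpn-13, chrIII:6342175-6342275: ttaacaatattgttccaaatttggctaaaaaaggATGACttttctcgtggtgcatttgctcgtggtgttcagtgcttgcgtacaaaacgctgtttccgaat
rpn-9, chrII:11239104-11239204: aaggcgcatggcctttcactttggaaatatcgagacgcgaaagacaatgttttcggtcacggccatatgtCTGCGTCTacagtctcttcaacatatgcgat
rpn-3, chrIII:8447111-8447211: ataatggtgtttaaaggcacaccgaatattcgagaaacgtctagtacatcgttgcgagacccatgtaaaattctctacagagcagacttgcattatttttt
pas-1, chrV:14423421-14423521: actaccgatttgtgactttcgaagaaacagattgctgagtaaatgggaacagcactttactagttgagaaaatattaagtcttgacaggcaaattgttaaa

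Other genes of the ubiquitin system were bound in 36 of 135 cases (26.7%), against 11.5% of all genes. Replicate 1 alone gave 34 and replicate 2 alone gave 36. Within 500 bp 24 were bound, against 8.72% of all genes. With the nearest 5′ end only 28 were bound, against 8.62%. Counts by role were uneven but most lists are short. Of the precursor genes, which encode ubiquitin fused to itself or to ribosomal proteins, 2 of 3 were bound, ubl-1 (signal 87.4) and ubq-2 (84.9). Both peaks were weak, and the replicates disagreed on each. Replicate ranks were 4724 and 1860 at ubl-1, and 2024 and 7091 at ubq-2. The ubq-2 summit lay at -449 bp and nearer to frg-1 (-190 bp). Of the activating enzymes 1 of 5 was bound, uba-5 (signal 212), which serves the ubiquitin-like UFM1, and uba-1, the E1 of ubiquitin itself, was not. Of the E2 and E2 variants with other names 2 of 4 were bound, among them uev-1 (signal 108). Proteasome regulators and assembly factors were bound in 5 of 13 cases, led by ecps-1 (signal 562), tpp-2 (220.3), a peptidase that trims proteasome products, and ubql-1 (157), a shuttle. The peak at ecps-1, the homologue of yeast ECM29, lay at -786 bp and nearer to atx-2 (-52 bp).

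Ligases and the removal and extraction machinery were bound to differing extents. Of CDC-48 and its cofactors, which pull ubiquitinated proteins out of complexes and membranes, 5 of 14 were bound, led by cdc-48.1 (signal 541, -155 bp), ufd-2 (258) and ufd-3 (249.9). Deubiquitinases were bound in 6 of 22 cases, led by duo-3 (signal 270.5, -697 bp), otub-2 (269, -963 bp) and usp-48 (247). The list includes ubh-4 (signal 125), a proteasome-associated one. The usp-48 summit lay at -594 bp and nearer to F30A10.9 (-185 bp). HECT and other single ligases were bound in 8 of 27 cases, led by eel-1 (signal 782), prp-19 (515) and mib-1 (242). The prp-19 peak is also the strongest at emb-1 and lies nearest to K10D2.5. Cullin ligase genes were bound in 4 of 25 cases, led by lin-23 (signal 169, -975 bp), sel-10 (93.4) and elb-1 (90.6). The anaphase-promoting complex had 2 of 13 bound, emb-1 and gfi-3 (173), and the NEDD8 and COP9 list 1 of 9, dcn-1 (90.7). The last 3 shares, 16.0%, 15.4% and 11.1%, are near the background of 11.5%.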

How the data were processed

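Peak lists on the ce11 build were analysed for 2 replicates of 1 group. Per the accompanying text files the authors made lists for the single replicates and for the pooled reads, each against a control, and the optimal set holds pooled peaks past an irreproducibility threshold. The other 3 lists are relaxed and hold background (23800, 23216 and 25747 peaks). The peak signal is the authors' deposited value, used only to rank and describe peaks within a list. The deposited -log10 of a q-value was not used to rank. No source used here names the aligner, the peak caller or the threshold. Read depth is unknown, which leaves the precision of single signals open, and the lists on ce10 were not used here.

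From these lists Python 3.11.15 scripts took summits (1-based), ranked peaks by signal, and counted genes of the Ensembl 115 annotation (WBcel235, the ce11 sequence; no peak ended past a chromosome) with a summit within 1 kb of any 5′ end. No test was run: counts stand beside all genes, with exact binomial intervals from scipy 1.17.1. Members and lists were chosen with earlier results of these data known. One bound member and 1 bound gene of the other lists are counted but not reported here by name. The text names every other bound member, the 5 unbound ones with the best pooled ranks, up to 3 strongest of the other bound genes of each list, nearer neighbours and tbx-2; other genes were named after their values were seen. Of 138 symbols entered by hand for other pathway genes 3 were not found, and rbr-2, a histone demethylase, had been entered in error and was left out. Simulated peaks were used to check the step that assigns peaks to genes. Motifs planted in random sequences were found by a plain word search, which had to find them. The motif counts at summits were not checked in this way. Alternatives were other windows, assignments, thresholds, 5′ ends, motif windows and single replicates.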

Additional observations from a re-analysis of the deposited data

How the results depend on the processing

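Counts were held to 1.5 times the reported count, and the background share and median distance to the SD between replicates. By these limits 50 values did not move and 34 did (22 counts, 11 background shares and 1 distance). The stronger 1527 optimal peaks left 7 bound members (3 core particle, 2 regulatory particle) against 6.67% of all genes, and the 500 strongest left 3 (1 in each class) against 2.38%, with 16 other pathway genes. The pooled relaxed list gave 41 members (13, 16 and 12 by class), 89 pathway genes and 44.5% of all genes. With the nearest 5′ end only, the core particle had 3 bound against 8.62% of all genes. Within 2 kb the conjugating enzymes had 5 against 15.9%, and within 500 bp the background was 8.72%. It was 12.5% with any base of the peak, 10.5% upstream only and 10.6% with the longest transcript only. Leaving out a replicate gave 13 to 15 members, 4 to 5 core particle, 5 to 7 regulatory particle and 3 to 4 conjugating enzyme genes, 34 to 36 pathway genes, a background of 11.2 to 11.3% and a median distance of -208 to -194 bp (-192 bp in the optimal set). Without replicate 2 the regulatory particle fell to 5 of 19. Within 25 and 100 bp of the summit the GA repeat was at 0 and 3 member peaks and CTGCGTCT at 0 and 2. The GC-box was at 5 within 100 bp, and the SKN-1 core at 2 within 25 bp. The causes were not tested. Added after seeing the data, leaving out peaks near small RNA genes gave 16 members, and leaving out those nearer to another gene gave 13. No paired analysis was possible because there is 1 group. With 14 to 20 genes a class, counting error limits the comparison of classes.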
